A study of Mus musculus with 6 samples.

Results

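The 36 genes described here encode the carriers and enzymes that take glucose to lactate, the kinases and dehydrogenase subunit that set the entry of pyruvate into mitochondria, the oxygen-sensing machinery, and a few genes that hypoxia induces. They were taken by gene symbol as a fixed list from the 24956 gene rows of a count table, and all 36 passed the filter on low counts. The cells were microglia, macrophages that reside in the brain, which a cell sorter isolated from 3XTg-AD mice at an age of 7 months, and their RNA was sequenced in bulk. Of the 6 libraries, 3 came from mice given anti-NK1.1, an antibody that depletes natural killer (NK) cells, and 3 from mice given an isotype control antibody, each at 25 µg every 4 days for 4 weeks. Mice of both groups carried the same 3XTg-AD alleles, among them human APP and MAPT transgenes that a Thy1 promoter drives in neurons, so no group without these alleles enters the comparison. The labels do not say whether a library is 1 animal or a pool.

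Glycolysis splits glucose into pyruvate in the cytosol and yields ATP without oxygen. Lactate dehydrogenase then turns pyruvate into lactate, or the pyruvate dehydrogenase complex feeds it to the mitochondria. When oxygen is scarce, prolyl hydroxylases no longer mark the alpha subunit of hypoxia-inducible factor (HIF) for destruction by the Vhl ubiquitin ligase, and the alpha subunit pairs with Arnt to switch on glycolytic enzymes, glucose carriers and genes such as Vegfa. In macrophages and microglia the same factor is known to accompany inflammatory activation, when these cells draw more on glycolysis.

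Gene counts totalled 26.9 M to 31.4 M in the anti-NK1.1 libraries and 31.9 M to 36.1 M in the isotype libraries, so 3 counts corresponded to between 0.0784 and 0.120 CPM, the gene's counts scaled to a common library size. The 10 microglial markers summed to 2.67% to 4.16% of gene counts in anti-NK1.1 libraries and 3.32% to 4.00% in isotype libraries, and none was at 0. NK cell markers summed to 37.9 to 72.4 CPM in anti-NK1.1 libraries and 82.1 to 128 CPM in isotype libraries. The libraries were not alike in other cells either. The 13 neutrophil markers summed to 3.24%, 3.66% and 12.3% of gene counts in anti-NK1.1 1, 2 and 3. In isotype 1, 2 and 3 their sum was 10.2%, 8.21% and 8.04%. Anti-NK1.1 3 was the highest library in S100a8, S100a9, Ngp, Camp, Lcn2 and Retnlg. It lay within the isotype range in Ltf, Mmp8, Mmp9, Elane and Prtn3, and below it in Cxcr2 and Mpo. The 8 monocyte markers summed to 0.135%, 0.198% and 0.478% in anti-NK1.1 1, 2 and 3. In isotype 1, 2 and 3 their sum was 0.476%, 0.426% and 0.463%. In this sum, most of which was Chil3 in every library, anti-NK1.1 3 was again unlike the other 2. It was the highest library in Chil3, Ly6c2, Plac8 and Ms4a4c. In Ccr2, Fn1 and F13a1 it lay between the other 2 anti-NK1.1 libraries, and in Vcan below both. The 8 oligodendrocyte markers summed to between 0.0904% and 0.138% in anti-NK1.1 libraries and to between 0.0521% and 0.0597% in isotype libraries. Libraries also differed in how their levels ran with transcript length: across 14391 genes, the deviation from the mean of all libraries had a Spearman correlation with length of -0.16, 0.26 and -0.32 in anti-NK1.1 1, 2 and 3, and of -0.0083, 0.034 and 0.34 in isotype 1, 2 and 3.

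In most glycolytic genes the groups overlapped, and the genes with the largest changes of the 36 belonged to the hypoxia response. Ddit4 was about 6 times higher in anti-NK1.1 libraries, while Arnt and Hif1a, the 2 subunits of HIF, were at 0.379 and 0.396 times their isotype level. Changes are log2 ratios of anti-NK1.1 over isotype. Of the 36 genes, 18 had a positive and 18 a negative log2 change, with a median of -0.05 against 0.01 over all tested genes. With edgeR's quasi-likelihood test at an adjusted p of 0.05, none of the 36 was called, where 0% of the 14520 tested genes were called. At an unadjusted p under 0.05, 3 of the 36 passed (Ddit4, Arnt and Hif1a), where 6.54% of all tested genes did. With DESeq2, 2 of the 36 were called (Ddit4 and Arnt), where 0.574% of the genes with an adjusted p were called. In 5 of the 36 genes (13.9%) every anti-NK1.1 library lay on 1 side of every isotype library, which is near the 15.3% of all tested genes. Ddit4 and Pfkl were the 2 with higher anti-NK1.1 levels (7.73% of all tested genes), and Arnt, Hif1a and Bnip3l the 3 with lower ones (7.59% of all tested genes).

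**Figure D1:**
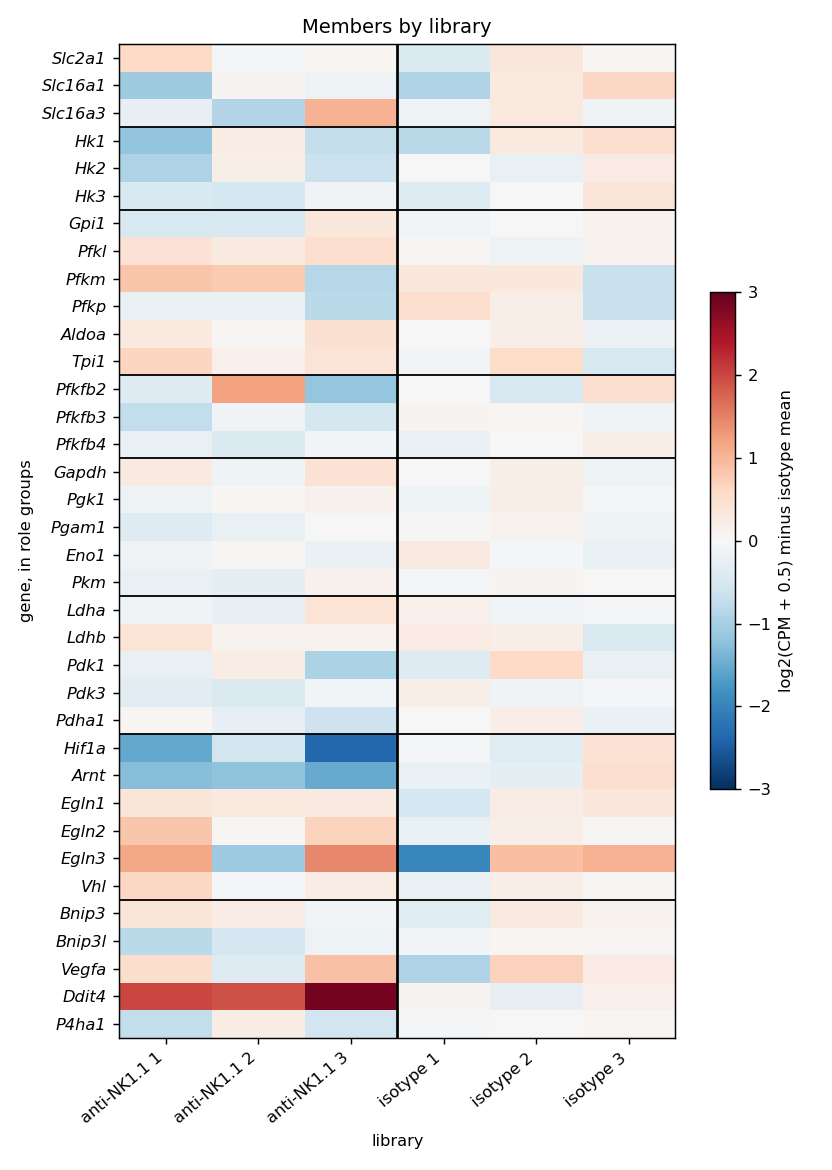
Level of each of the 36 genes (rows, in role groups) in each library (columns, anti-NK1.1 left of isotype) as log2(CPM + 0.5) minus the mean of the 3 isotype libraries. Ddit4 is high in all 3 anti-NK1.1 libraries, Arnt and Hif1a are low in all 3, and most glycolytic rows show no split between the groups.

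Ddit4 encodes a protein that restrains the growth kinase complex mTORC1 and is induced by hypoxia, glucocorticoids and energy stress. It lies on chromosome 10, 59949669 to 59951834, in GRCm38, the assembly also called mm10. Ddit4 had 242, 295 and 432 counts in anti-NK1.1 1, 2 and 3, against 74, 49 and 84 counts in isotype 1, 2 and 3. Scaled by depth, the anti-NK1.1 libraries had 9.11, 8.61 and 17.2 CPM and the isotype libraries 2.06, 1.52 and 2.19 CPM, so the groups did not overlap and anti-NK1.1 3 was the highest. Means were 11.6 ± 4.83 CPM in anti-NK1.1 libraries and 1.93 ± 0.358 CPM in isotype libraries (SD, n = 3 each), a ratio of 6.03. The log2 change was 2.59 ± 0.59 (SE), with an edgeR adjusted p of 0.714 and a DESeq2 adjusted p of 0.00583. Over the alternatives run, edgeR's and limma's adjusted p for Ddit4 lay between 0.0900 and 0.999, and the log2 change between 2.09 and 2.77. Neuron markers also differed between the groups: 9 of 9 had positive log2 changes, and they summed to 197 to 597 CPM in anti-NK1.1 libraries, against 44.2 to 150.3 CPM in isotype libraries. All 8 oligodendrocyte markers had positive log2 changes too. The part of these cells in the Ddit4 result was not tested. In a bulk library, fewer cells of a type and less RNA per cell cannot be told apart.

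Ddit4 is a textbook HIF target, and its promoter is shown for the HIF core motif. The 250 bases before its RefSeq start (GRCm38.p6, chr10:59951771-59952020, minus strand) held ACGTG and GCGTG once each, in capitals here.
Ddit4 promoter: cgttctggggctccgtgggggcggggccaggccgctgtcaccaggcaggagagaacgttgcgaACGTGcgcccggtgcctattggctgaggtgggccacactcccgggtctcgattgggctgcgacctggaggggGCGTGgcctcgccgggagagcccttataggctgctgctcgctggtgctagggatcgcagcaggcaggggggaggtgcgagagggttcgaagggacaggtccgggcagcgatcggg
The motifs searched throughout were ACGTG and GCGTG on both strands, so CACGT and CACGC mark the same motifs on the other strand, and CACGTG counts on both strands.

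Hif1a encodes the oxygen-regulated alpha subunit of HIF, which is controlled chiefly by the breakdown of the protein, and lies on chromosome 12, 73901375 to 73947530. Hif1a had 29.4, 58.6 and 16.3 CPM in anti-NK1.1 1, 2 and 3, against 81.6, 66.7 and 116 CPM in isotype 1, 2 and 3. The groups did not overlap, but anti-NK1.1 2 lay close below isotype 2. The means were 34.8 ± 21.6 CPM in anti-NK1.1 libraries and 88.0 ± 25.1 CPM in isotype libraries (SD, n = 3 each), a ratio of 0.396. The log2 change was -1.34 ± 0.44 (SE), with an edgeR adjusted p of 0.727 and a DESeq2 adjusted p of 0.180. Anti-NK1.1 2 alone against the isotype libraries gave -0.58, and a correction for transcript length and GC content gave -0.99. Of the exons of Hif1a, 5.60% overlap the antisense gene Gm15283, and since the kit does not mark strand, reads of the pair cannot be told apart.

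Arnt encodes the constant partner of Hif1a, which also pairs with the aryl hydrocarbon receptor, and lies on chromosome 3, 95434388 to 95497240. Arnt had 15.5, 16.3 and 13.1 CPM in anti-NK1.1 1, 2 and 3, against 33.2, 31.3 and 53.9 CPM in isotype 1, 2 and 3. The anti-NK1.1 libraries lay close together and all well below the lowest isotype library, and isotype 3 was the highest. Means were 15.0 ± 1.70 CPM in anti-NK1.1 libraries and 39.5 ± 12.5 CPM in isotype libraries (SD, n = 3 each), a ratio of 0.379. The log2 change was -1.40 ± 0.34 (SE), with an edgeR adjusted p of 0.714 and a DESeq2 adjusted p of 0.0428. It was -1.27 with anti-NK1.1 2 alone against the isotype libraries and -1.17 after the correction for length and GC content. None of the transcript's 75-base windows, the length of a read, is found in a transcript of another gene. Of the 8 monocyte markers, 5 had negative and 3 positive log2 changes, and none was at 0. The groups overlapped in Chil3, Ly6c2, Plac8, Ms4a4c and Vcan. Chil3, the most abundant, had 867, 1236 and 4085 CPM in anti-NK1.1 1, 2 and 3. In isotype 1, 2 and 3 it had 3345, 3045 and 2979 CPM. Ccr2, Fn1 and F13a1, singled out after their values were seen, had groups that did not overlap and were lower in anti-NK1.1 libraries. Ccr2 had 18.9, 63.8 and 37.4 CPM in anti-NK1.1 1, 2 and 3, against 137, 84.6 and 162 CPM in isotype 1, 2 and 3. The part of monocytes in the Arnt and Hif1a results was not tested.

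Because Hif1a and Arnt form 1 dimer, their promoters are shown together, each as the 250 bases before the RefSeq start on the plus strand of GRCm38.p6, with the motifs in capitals. The Hif1a window is chr12:73907617-73907866 and holds the palindrome CACGTG and 1 further ACGTG, and the Arnt window is chr3:95434140-95434389 and holds 1 GCGTG.
Hif1a promoter: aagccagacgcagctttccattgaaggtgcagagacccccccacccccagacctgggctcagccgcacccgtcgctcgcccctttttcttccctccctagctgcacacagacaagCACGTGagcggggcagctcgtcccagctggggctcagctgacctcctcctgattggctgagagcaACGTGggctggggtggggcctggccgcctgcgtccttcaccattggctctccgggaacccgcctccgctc
Arnt promoter: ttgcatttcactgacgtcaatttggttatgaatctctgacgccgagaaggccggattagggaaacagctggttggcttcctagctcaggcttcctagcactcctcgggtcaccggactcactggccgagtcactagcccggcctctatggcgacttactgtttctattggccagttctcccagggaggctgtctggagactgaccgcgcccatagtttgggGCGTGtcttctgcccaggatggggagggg
A match describes the letters in the window and nothing about binding.

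**Figure D2:**
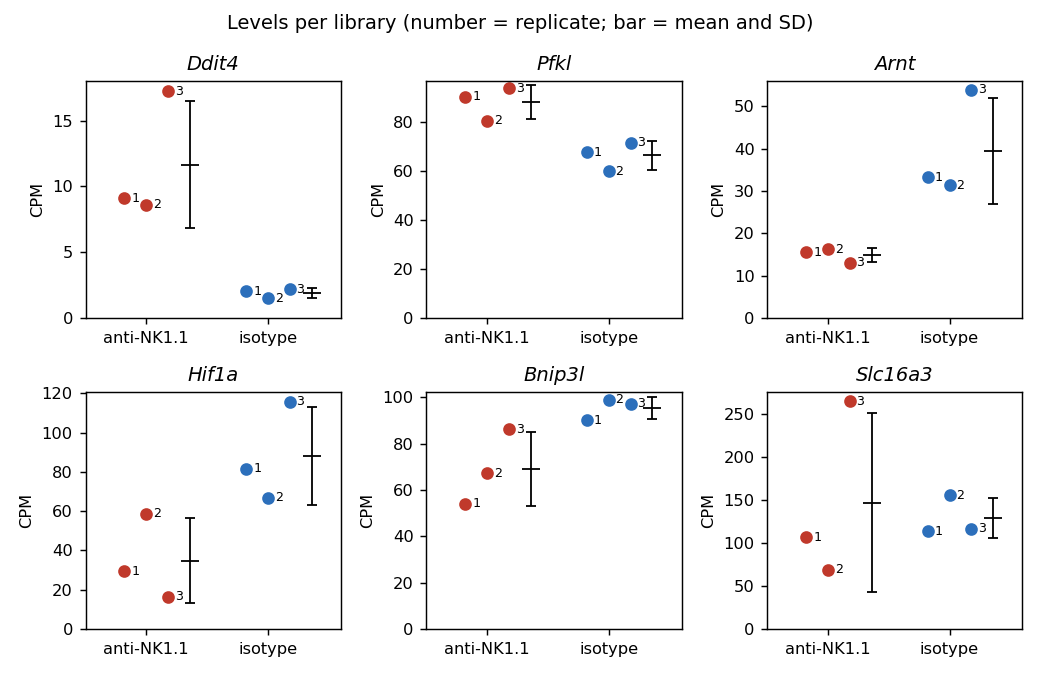
CPM of Ddit4, Pfkl, Arnt, Hif1a, Bnip3l and Slc16a3 in each library (points, numbered by replicate; anti-NK1.1 left, isotype right), with the mean and SD (n = 3 each) beside the points; each panel has its own axis from 0. The groups do not overlap in the first 5 genes, and Slc16a3 is set apart by anti-NK1.1 3 at 265 CPM.

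Egln1, Egln2 and Egln3 encode the prolyl hydroxylases that sense oxygen, and Vhl the ubiquitin ligase subunit that recognises hydroxylated HIF. With all libraries the 4 had positive log2 changes, and none was called by edgeR or DESeq2. Egln2 was at -0.03 after the correction for length and GC content, Vhl was at -0.07 with anti-NK1.1 2 alone, and Egln3 was negative with anti-NK1.1 2 alone, without anti-NK1.1 3 and without isotype 1 (-2.03, -0.06 and -0.11). Egln2 had 74.8, 42.8 and 66.7 CPM in anti-NK1.1 1, 2 and 3, against 36.2, 47.0 and 42.5 CPM in isotype 1, 2 and 3, so anti-NK1.1 2 lay among the isotype libraries. Its log2 change was 0.55 ± 0.29 (SE; edgeR adjusted p = 0.743). Egln1 was steady at 34.7, 33.0 and 32.6 CPM in anti-NK1.1 libraries, against 18.6, 31.6 and 33.5 CPM in isotype libraries, where isotype 1 was the low one. Vhl had 125, 77.8 and 95.1 CPM in anti-NK1.1 libraries, against 69.9, 93.0 and 83.2 CPM in isotype libraries, with a log2 change of 0.27 ± 0.25. Egln3, itself a hypoxia-induced gene, was low and uneven: 6.25, 0.905 and 7.73 CPM in anti-NK1.1 1, 2 and 3, against 0.279, 5.15 and 5.72 CPM in isotype 1, 2 and 3. Each group thus held 1 library far below the other 2, with 31 counts in anti-NK1.1 2 and 10 counts in isotype 1, and the log2 change of Egln3 was 0.42 ± 1.1.

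The other 4 hypoxia-induced genes had smaller changes, in both directions. Bnip3 and Bnip3l encode related mitochondrial receptors for mitophagy. Bnip3l (chromosome 14, 66985239 to 67008877) had 54.2, 67.3 and 86.2 CPM in anti-NK1.1 1, 2 and 3, against 90.1, 99.0 and 97.2 CPM in isotype 1, 2 and 3. Its groups did not overlap, although anti-NK1.1 3 came close to isotype 1. The log2 change of Bnip3l was -0.46 ± 0.25 (SE; edgeR adjusted p = 0.743), and -0.03 after the correction for length and GC content. Of its transcript's 75-base windows, 20.6% are also in the pseudogene Bnip3l-ps, so its counts are uncertain to that extent. Bnip3 had 26.7, 24.4 and 19.4 CPM in anti-NK1.1 libraries, against 15.8, 24.8 and 22.4 CPM in isotype libraries, a log2 change of 0.16 ± 0.34, and shares 46.3% of its windows with other genes. Vegfa, the angiogenic growth factor, had 15.9, 8.18 and 20.4 CPM in anti-NK1.1 1, 2 and 3, against 5.41, 17.8 and 12.9 CPM in isotype 1, 2 and 3. Its groups overlapped throughout, with a log2 change of 0.30 ± 0.55. P4ha1, the catalytic subunit of collagen prolyl 4-hydroxylase, had 111 and 124 CPM in anti-NK1.1 1 and 3 and 217 CPM in anti-NK1.1 2, against 180.3, 184 and 192 CPM in isotype libraries. The anti-NK1.1 libraries therefore lay on both sides of a narrow isotype range, and the log2 change of P4ha1 was -0.30 ± 0.28, and -0.075 after the same correction.

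**Figure D3:**
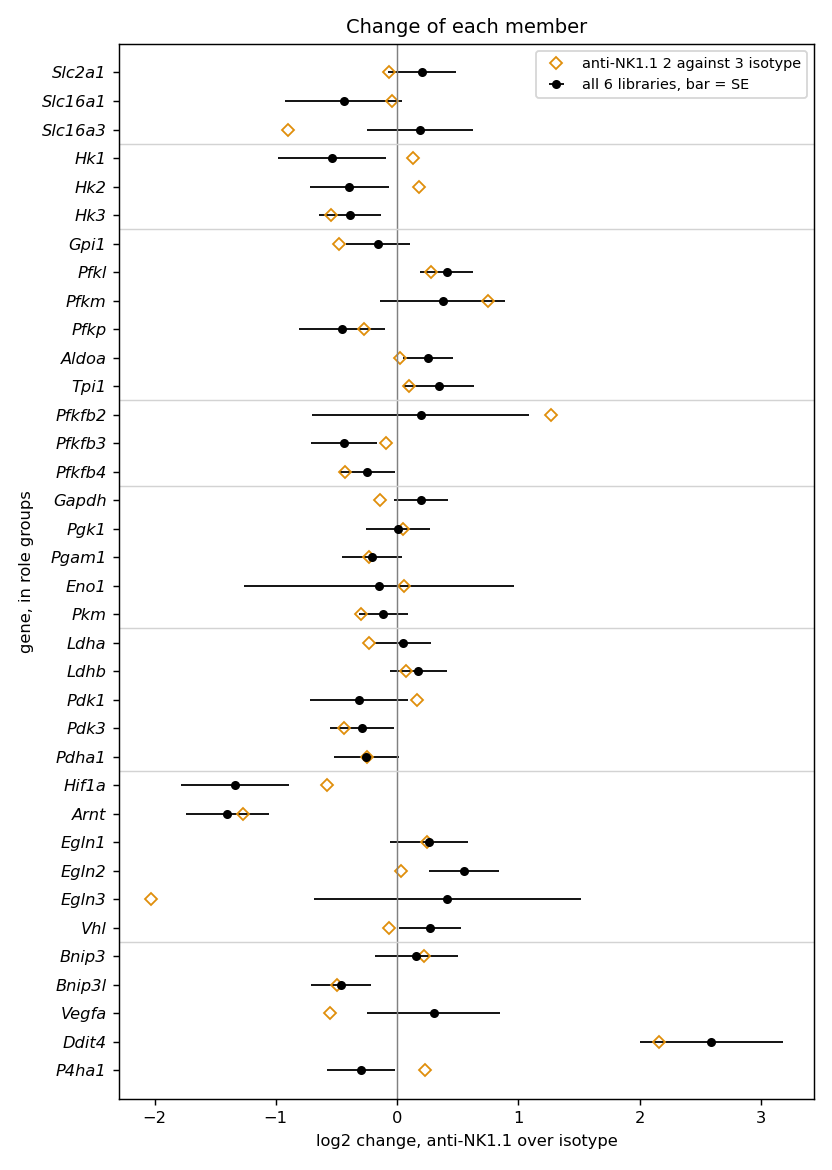
Log2 change of anti-NK1.1 over isotype for each of the 36 genes, in role groups. Filled points are edgeR estimates from all 6 libraries with their SE, and open diamonds are anti-NK1.1 2 alone against the 3 isotype libraries. Ddit4 and Arnt keep most of their change in the diamonds, at 2.16 and -1.27, while Hif1a moves to -0.58 and Egln3 to -2.03.

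Glucose enters through Slc2a1, the carrier GLUT1, and lactate leaves through Slc16a1 and Slc16a3, the carriers MCT1 and MCT4. None of the 3 was called by edgeR or DESeq2. Slc2a1 (chromosome 4, 119108711 to 119137983) had 157, 99.99 and 107 CPM in anti-NK1.1 1, 2 and 3, against 77.7, 130.2 and 108 CPM in isotype 1, 2 and 3. Its groups overlapped, with a log2 change of 0.21 ± 0.28 (SE; edgeR adjusted p = 0.861). Slc2a1 is also a gene of brain endothelial cells, whose 10 markers summed to 131 to 279.9 CPM in anti-NK1.1 libraries and 96.6 to 169 CPM in isotype libraries, with 9 of 10 log2 changes positive and no marker at 0. The part of endothelial cells in the Slc2a1 level was not tested. Slc16a3, which exports lactate from highly glycolytic cells, had 107, 68.8 and 265 CPM in anti-NK1.1 1, 2 and 3, against 114, 156 and 117 CPM in isotype 1, 2 and 3. Its highest library, anti-NK1.1 3, was also the one with the highest neutrophil marker share, 12.3%. Of these markers 13 of 13 were present, and all 13 log2 changes were negative over the groups. That library was the highest in S100a8, S100a9, Ngp, Camp, Lcn2 and Retnlg, but not in the other markers. The part of neutrophils in the Slc16a3 level was not tested. Without anti-NK1.1 3 the log2 change of Slc16a3 was -0.55, against 0.19 ± 0.44 with all libraries. Slc16a1 had 10.4, 23.7 and 20.1 CPM in anti-NK1.1 libraries, against 11.7, 27.3 and 34.5 CPM in isotype libraries, a log2 change of -0.44 ± 0.48. That of Slc16a1 was -0.023 after the correction for length and GC content and -0.11 without isotype 3.

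Hexokinases trap glucose in the cell as glucose-6-phosphate, and all 3 measured isoenzymes had negative log2 changes, with none called by edgeR or DESeq2. Hk3, the isoenzyme typical of myeloid cells, had 93.2, 89.8 and 119 CPM in anti-NK1.1 1, 2 and 3, against 99.2, 130.2 and 165 CPM in isotype 1, 2 and 3. Only isotype 1 lay inside the anti-NK1.1 range, and the log2 change of Hk3 was -0.39 ± 0.26 (SE; edgeR adjusted p = 0.751). Hk2, the insulin-responsive isoenzyme that HIF induces, had 35.5, 76.7 and 43.0 CPM in anti-NK1.1 1, 2 and 3, against 66.3, 57.5 and 80.1 CPM in isotype 1, 2 and 3. Anti-NK1.1 1 and 3 lay below all isotype libraries and anti-NK1.1 2 did not, and the log2 change was -0.39 ± 0.33. Hk1, the housekeeping isoenzyme of brain, also peaked in anti-NK1.1 2 among its anti-NK1.1 libraries, with 20.9, 56.1 and 29.0 CPM in anti-NK1.1 libraries, against 27.3, 58.6 and 68.2 CPM in isotype libraries, and a log2 change of -0.54 ± 0.45. With anti-NK1.1 2 alone, Hk1 and Hk2 had positive changes of 0.13 and 0.18.

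Per kilobase of transcript, Hk3 made up most of the hexokinase mRNA in every library. Its share of the summed CPM per kilobase was 71.9%, 50.8% and 71.7% in anti-NK1.1 1, 2 and 3, against 62.6%, 62.6% and 62.8% in isotype 1, 2 and 3. The mean shares were 64.8% ± 12.1 in anti-NK1.1 libraries and 62.7% ± 0.0968 in isotype libraries (SD, n = 3 each), so the isotype libraries were nearly identical and the anti-NK1.1 libraries spread to both sides of them. The share of Hk2 was 18.8% ± 5.66 in anti-NK1.1 libraries and 19.5% ± 4.40 in isotype libraries, a difference of -0.637 percentage points (two-sided exact permutation p = 0.7, adjusted p = 0.7 over 3 shares tested). With 3 libraries against 3, the exact test cannot go below p = 0.1.

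The first stage of glycolysis turns glucose-6-phosphate into triose phosphates, and 4 of its 6 genes had positive log2 changes. In 1 of the 6, Pfkl, the groups did not overlap (16.7%, against 15.3% of all tested genes). Pfkl (chromosome 10, 77986947 to 78010083) encodes the liver-type subunit of phosphofructokinase, which catalyses the main committed step. Pfkl had 90.2, 80.5 and 93.7 CPM in anti-NK1.1 1, 2 and 3, against 67.6, 59.99 and 71.6 CPM in isotype 1, 2 and 3. The means were 88.1 ± 6.81 CPM in anti-NK1.1 libraries and 66.4 ± 5.88 CPM in isotype libraries (SD, n = 3 each). The log2 change of Pfkl was 0.41 ± 0.22 (SE), with an edgeR adjusted p of 0.743 and a DESeq2 adjusted p of 0.620, and 0.20 after the correction for length and GC content. Pfkp, the platelet-type subunit, had 40.1, 39.9 and 26.2 CPM in anti-NK1.1 1, 2 and 3, against 65.0, 51.6 and 28.9 CPM in isotype 1, 2 and 3, a log2 change of -0.45 ± 0.35. Library 3 of each group was the low one for Pfkp, and also for Pfkm, the muscle-type subunit. Pfkm had 29.7, 29.0 and 8.85 CPM in anti-NK1.1 libraries, against 21.2, 20.6 and 10.3 CPM in isotype libraries, a log2 change of 0.38 ± 0.51.

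Within the phosphofructokinase family the share of Pfkp separated the groups, with all anti-NK1.1 libraries below all isotype libraries. It was 21.9%, 23.3% and 18.3% of the summed CPM per kilobase in anti-NK1.1 1, 2 and 3, against 38.1%, 34.9% and 23.5% in isotype 1, 2 and 3. The highest anti-NK1.1 and the lowest isotype share nearly met. The difference was -10.98 percentage points between means of 21.2% ± 2.56 in anti-NK1.1 libraries and 32.2% ± 7.70 in isotype libraries, with a two-sided exact permutation p of 0.1, the smallest this design allows, and an adjusted p of 0.3 over the 3 shares. Pfkl took 54.7%, 52.3% and 72.8% in anti-NK1.1 1, 2 and 3, against 44.0%, 45.1% and 64.5% in isotype 1, 2 and 3, and was the leading subunit in all 6 libraries. Of the Pfkp transcript's windows, 16.6% are shared with the overlapping gene Pitrm1, so the Pfkp level is uncertain to that extent.

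**Figure D4:**
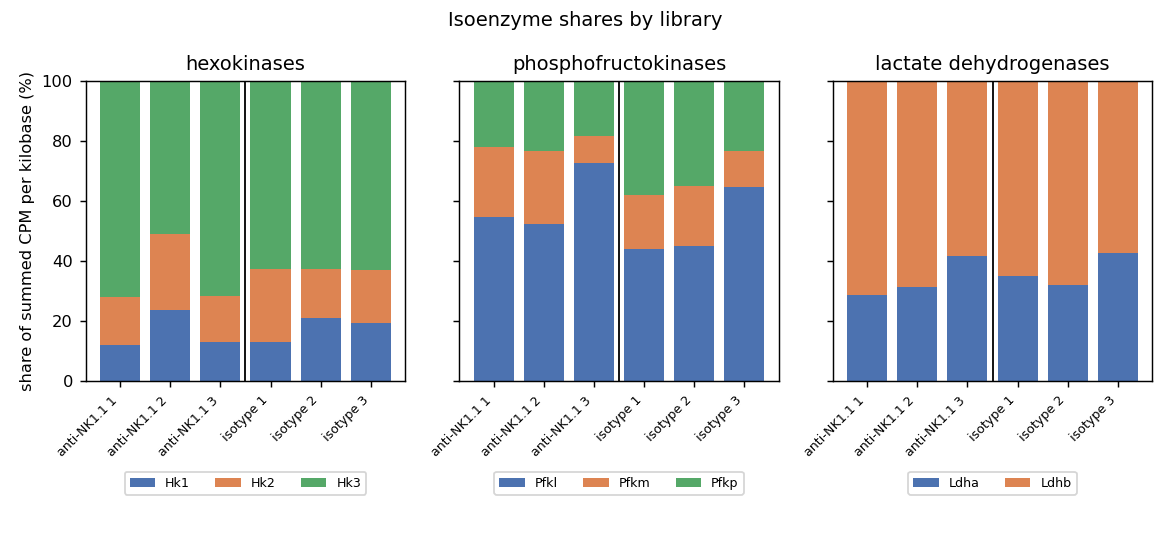
Share of each isoenzyme in the summed CPM per kilobase of its family, for hexokinases, phosphofructokinases and lactate dehydrogenases, in each library (bars; anti-NK1.1 left of the line, isotype right). Pfkp takes 18.3% to 23.3% in anti-NK1.1 libraries and 23.5% to 38.1% in isotype libraries, while the hexokinase and lactate dehydrogenase shares overlap.

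The remaining enzymes of this stage were among the most abundant of the list. Aldoa, the main aldolase, which splits fructose-1,6-bisphosphate, had 1019.6, 856 and 1145 CPM in anti-NK1.1 1, 2 and 3, against 830.1, 961 and 739.9 CPM in isotype 1, 2 and 3. At a mean of 650.0 CPM per kilobase in anti-NK1.1 libraries and 545 in isotype libraries, it had the highest level per length of the 36 genes. Its log2 change was 0.26 ± 0.21 (SE; edgeR adjusted p = 0.784), and -0.17 after the correction for length and GC content. Tpi1, which interconverts the triose phosphates, had 296, 211 and 246 CPM in anti-NK1.1 libraries, against 179.9, 279 and 135 CPM in isotype libraries, a log2 change of 0.34 ± 0.29. Gpi1, which isomerises glucose-6-phosphate, had 283, 284 and 501 CPM in anti-NK1.1 1, 2 and 3, against 377, 391.7 and 424 CPM in isotype 1, 2 and 3. Anti-NK1.1 1 and 2 lay below and anti-NK1.1 3 above all isotype libraries, an order that the neutrophil marker share shares, and its part in the Gpi1 level was not tested. The log2 change of Gpi1 was -0.16 ± 0.26.

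Pfkfb2, Pfkfb3 and Pfkfb4 make or remove fructose-2,6-bisphosphate, the strongest activator of phosphofructokinase. Pfkfb3, the isoenzyme with the highest kinase activity and a known target of HIF, had 33.0, 51.4 and 37.9 CPM in anti-NK1.1 1, 2 and 3, against 58.4, 57.0 and 49.8 CPM in isotype 1, 2 and 3. Anti-NK1.1 2 lay inside the isotype range and the other 2 below it, with a log2 change of -0.43 ± 0.27 (SE; edgeR adjusted p = 0.748) over all libraries and -0.09 with anti-NK1.1 2 alone. Pfkfb4 was the most abundant of the 3, at 80.3, 69.1 and 87.2 CPM in anti-NK1.1 libraries, against 81.5, 93.4 and 106 CPM in isotype libraries, a log2 change of -0.25 ± 0.23. Pfkfb2 was scarce, at 1.12 to 7.86 CPM in anti-NK1.1 libraries and 2.11 to 4.57 CPM in isotype libraries, and its change of 0.20 ± 0.89 turned negative without anti-NK1.1 2, at -0.95.

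The later stage of glycolysis, which makes the ATP, had log2 changes between -0.20 and 0.20 for all 5 genes, and no gene was called by edgeR or DESeq2. That of Eno1, a gene with few counts, was -0.15 ± 1.11 (SE). After the correction for length and GC content the 5 changes ran from -0.53 for Eno1 to -0.06 for Pgk1. Gapdh, the triose phosphate dehydrogenase, had 579, 436 and 645 CPM in anti-NK1.1 1, 2 and 3, against 476, 542 and 431 CPM in isotype 1, 2 and 3, a log2 change of 0.20 ± 0.22 (SE). Pgk1, the first ATP-yielding kinase, had the smallest change of the 36, with means of 39.3 ± 3.79 CPM in anti-NK1.1 libraries and 39.0 ± 4.34 CPM in isotype libraries (SD, n = 3 each) and a log2 change of 0.01 ± 0.26. Pkm, the pyruvate kinase of macrophages and brain, had 489, 459.5 and 622 CPM in anti-NK1.1 libraries, against 539.9, 596 and 564 CPM in isotype libraries, a log2 change of -0.11 ± 0.20, and -0.46 after the correction for length and GC content. Pgam1, the phosphoglycerate mutase, had a log2 change of -0.20 ± 0.25.

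Several of these levels are limited by near-identical copies. Eno1, the main enolase, had 21, 32 and 18 counts in anti-NK1.1 1, 2 and 3, against 42, 27 and 27 counts in isotype 1, 2 and 3. At 0.402 CPM per kilobase in anti-NK1.1 libraries and 0.446 in isotype libraries it had the lowest level per length of the 36 genes, beside 390 CPM per kilobase for Gapdh and 215 for Pkm in anti-NK1.1 libraries. In the annotation, 65.4% of the 75-base windows of its transcript also occur in other genes, among them the near-identical Eno1b. The counting rule for reads that fit several genes is not given in the sources used here, so the Eno1 level is not read as that of enolase. The same share of windows was 80.3% for Gapdh, spread over 121 other genes, 67.5% for Pgk1 and 40.6% for Pgam1, whose levels are uncertain to that extent.

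At the end of glycolysis, the lactate dehydrogenase subunits were abundant, with overlapping groups. Ldha, the muscle-type subunit and a textbook HIF target, had 387, 355 and 559 CPM in anti-NK1.1 1, 2 and 3, against 463, 394 and 399 CPM in isotype 1, 2 and 3, a log2 change of 0.05 ± 0.23 (SE; edgeR adjusted p = 0.965). Again anti-NK1.1 3 was the highest library, beside its neutrophil marker share of 12.3%, whose part was not tested. Ldhb, the heart-type subunit, had 692, 558 and 558 CPM in anti-NK1.1 libraries, against 615, 599 and 386 CPM in isotype libraries, a log2 change of 0.18 ± 0.24. The share of Ldha in the summed CPM per kilobase of both was 34.0% ± 6.96 in anti-NK1.1 libraries and 36.6% ± 5.40 in isotype libraries (SD, n = 3 each; difference -2.63 percentage points, two-sided exact permutation p = 0.5, adjusted p = 0.7).

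The promoter of Ldha is shown because it held 5 motif matches over both strands, all of them ACGTG, with each CACGTG counted as 2; the Bnip3 window also held 5 matches, and no other of the 35 genes with a promoter entry held more. Another RefSeq start of Ldha, with the window chr7:46846832-46847081, held 1 match and no ACGTG. The window shown is the 250 bases before a RefSeq start, GRCm38.p6, chr7:46845554-46845803, plus strand, with the motifs in capitals.
Ldha promoter: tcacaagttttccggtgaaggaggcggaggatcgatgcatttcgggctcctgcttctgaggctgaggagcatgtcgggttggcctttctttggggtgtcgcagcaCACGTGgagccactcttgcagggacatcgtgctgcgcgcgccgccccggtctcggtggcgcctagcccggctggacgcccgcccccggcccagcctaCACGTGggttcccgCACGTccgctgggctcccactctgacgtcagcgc
Of the 35 genes with an entry in RefSeq's promoter table, 32 (91.4%) held ACGTG or GCGTG in at least 1 window before a RefSeq start. This was so for 59.2% of 11372 tested genes, and 38.6% of 32851 promoters in the table held either motif. Genes with several starts could match in any of them. Aldoa, Hk1, Pdk1, Pkm, Pfkm and Vegfa also had a window without a match. The list includes known HIF targets by choice, so its higher share is no finding about these libraries. The stricter ACGTG was found for 22 of 35 (62.9%), where 24.3% of the tested genes held it. The median GC content of these windows was 61.9% for the 35 genes and 59.6% for the tested genes. The windows shown, of Ddit4, Arnt, Hif1a and Ldha, each hold ACGTG or GCGTG, and the log2 changes were 2.59, -1.40, -1.34 and 0.05. Since 32 of the 35 genes held a match, these changes cannot show whether the motif goes with a direction.

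Pyruvate dehydrogenase, whose catalytic alpha subunit is Pdha1, feeds pyruvate to the mitochondria and is switched off by the kinases Pdk1 and Pdk3. All 3 genes had overlapping groups, no call by edgeR or DESeq2, and negative log2 changes, although Pdha1 was at 0.01 after the correction for length and GC content and Pdk1 at 0.17 with anti-NK1.1 2 alone and 0.06 without isotype 2. Pdk1, a HIF target, had 29.2, 40.2 and 17.5 CPM in anti-NK1.1 1, 2 and 3, against 26.3, 52.3 and 29.3 CPM in isotype 1, 2 and 3, with library 2 the highest of each group. Pdk3 had 36.01, 33.6 and 42.6 CPM in anti-NK1.1 libraries, against 51.1, 42.1 and 43.7 CPM in isotype libraries, a log2 change of -0.29 ± 0.26 (SE). Pdha1 had 72.6, 58.6 and 45.1 CPM in anti-NK1.1 libraries, against 69.2, 80.3 and 60.7 CPM in isotype libraries, a log2 change of -0.25 ± 0.27. Of its windows, 13.9% also occur in the overlapping gene Map3k15.

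The 36 changes differed by transcript length, though not in step with it. Of the 11 genes with transcripts of at least 4000 nt, 9 had negative log2 changes, with a median of -0.43, and over all 4596 tested genes of that length the median was -0.23. Of the 13 genes under 2500 nt, 9 had positive changes, with a median of 0.16, against 0.19 over the 5691 tested genes of that length. The 12 genes between, from 2500 nt up, had the highest median, 0.23, with 7 positive and 5 negative changes, against -0.09 over the 4104 tested genes of that length. The median deviation of the 11 long genes from the isotype mean was -0.74, 0.09 and -0.71 on the log2 scale in anti-NK1.1 1, 2 and 3. That mean includes isotype 3, whose levels had a correlation of 0.34 with length. The part of each library in these deviations was not tested. With anti-NK1.1 2 alone against the isotype libraries the median of the 11 was -0.05, against 0.05 over all tested genes of that length. After the correction for length and GC content the median of the 11 was -0.35, against -0.15. The medians of the 12 and the 13 genes were -0.34 and 0.04 with anti-NK1.1 2 alone, and 0.18 and -0.08 after the correction. In Hk2, Pfkfb3 and P4ha1, anti-NK1.1 1 and 3 lay below all isotype libraries while anti-NK1.1 2 did not. This is 3 of the 11 long genes, where 22.6% of all tested genes of at least 4000 nt show that order. Over the 36 genes the Spearman correlation of change with length was -0.54 with all libraries, -0.06 with anti-NK1.1 2 alone and -0.24 after the correction for length and GC content. These genes share 6 libraries, so the correlation is a description. Arnt, at 4325 nt, and Hif1a, at 4724 nt, are among the long genes, and Ddit4, at 1755 nt, among the short ones.

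**Figure D5:**
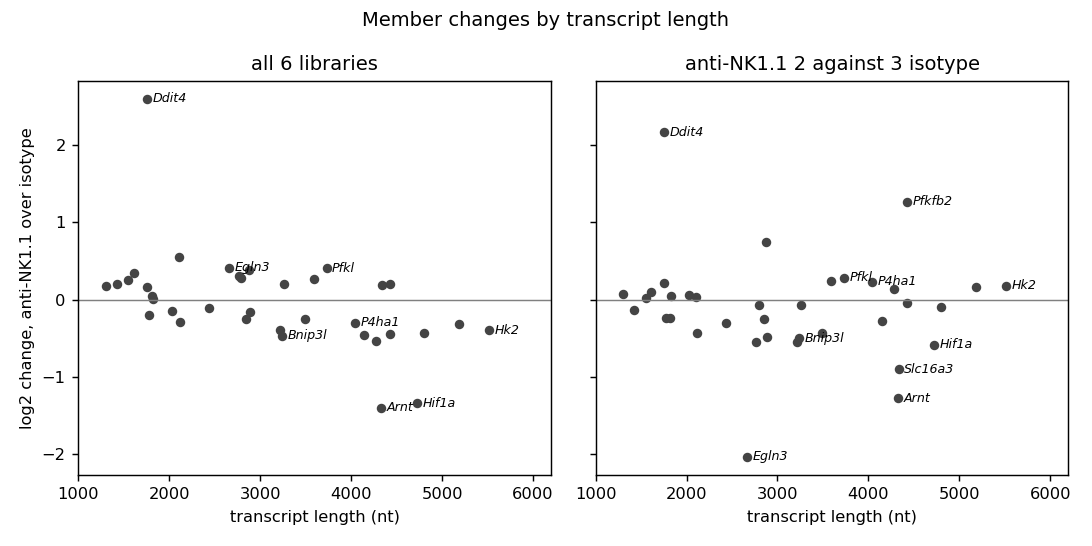
Log2 change of anti-NK1.1 over isotype (vertical) against transcript length in nt (horizontal) for the 36 genes, with all 6 libraries (left) and with anti-NK1.1 2 alone against the 3 isotype libraries (right). On the left 9 of the 11 genes of at least 4000 nt lie below 0, and on the right their median is -0.05. Ddit4 is the highest point in both panels, and Arnt lies at -1.40 on the left and -1.27 on the right.

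Genes of the same pathways outside the list gave no call by edgeR or DESeq2 in any of 5 further groups. Over all genes, edgeR called 0% of those tested and DESeq2 0.574% of those with an adjusted p. Their changes are given without the correction for length and GC content. The named genes with negative changes have transcripts of 2476 nt (Wsb1) to 9566 nt (Ep300). Those with positive changes have transcripts of 537 nt (Elob) to 2795 nt (Eno2). The part of transcript length in these changes was not tested. Among other glycolytic enzymes and sugar carriers, 14 of 18 were tested, 8 had positive and 6 negative log2 changes, and the groups did not overlap in 3 (21.4%, against 15.3% of all tested genes). Their smallest p-values belonged to Eno2, Aldoc and Eno3. Eno2, the neuronal enolase, had 13.7, 10.8 and 7.73 CPM in anti-NK1.1 1, 2 and 3, against 2.62, 2.85 and 5.41 CPM in isotype 1, 2 and 3, a log2 change of 1.57 ± 0.57 (SE; edgeR adjusted p = 0.727). Aldoc, the aldolase of astrocytes, had 51.9, 66.3 and 44.5 CPM in anti-NK1.1 libraries, against 10.99, 37.3 and 26.8 CPM in isotype libraries, a log2 change of 1.12 ± 0.43. Eno3, the muscle enolase, had a log2 change of 0.98 ± 0.39 with overlapping groups. Neuron markers summed to 197 to 597 CPM in anti-NK1.1 libraries, against 44.2 to 150.3 CPM in isotype libraries. The 8 astrocyte markers, Aldoc among them, summed to 311 to 466 CPM in anti-NK1.1 libraries, against 206 to 279 CPM in isotype libraries, with 5 of 8 log2 changes positive and none at 0. The part of neurons and astrocytes in Eno2 and Aldoc was not tested.

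The pentose phosphate pathway, which branches from glucose-6-phosphate to make NADPH, had 6 of 8 genes with negative log2 changes and a median of -0.20. G6pdx, its entry enzyme, had 78.3, 163 and 212.6 CPM in anti-NK1.1 1, 2 and 3, against 229.6, 212.8 and 322 CPM in isotype 1, 2 and 3. The groups of G6pdx are separated by only the gap between anti-NK1.1 3 and isotype 2, and the log2 change was -0.75 ± 0.35 (SE; edgeR adjusted p = 0.743). H6pd, the enzyme of the same reaction in the endoplasmic reticulum, had a log2 change of -0.81 ± 0.51 with groups that did not overlap, and Tkt, transketolase, one of -0.35 ± 0.30 with groups that did.

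Of the 13 genes for pyruvate entry to mitochondria, 9 had positive log2 changes. Pdp1, the phosphatase that switches pyruvate dehydrogenase back on, had 2.45, 2.04 and 1.87 CPM in anti-NK1.1 1, 2 and 3, against 7.84, 5.18 and 9.07 CPM in isotype 1, 2 and 3, a log2 change of -1.79 ± 0.64 (SE; edgeR adjusted p = 0.727). Bsg, the chaperone of the lactate carriers, had 2011, 1492 and 1401 CPM in anti-NK1.1 libraries, against 1191, 1293 and 642 CPM in isotype libraries, a log2 change of 0.65 ± 0.29. Mpc2, a subunit of the mitochondrial pyruvate carrier, had a log2 change of 0.49 ± 0.25, with anti-NK1.1 2 at 120.3 CPM beside isotype 2 at 120.0 CPM.

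Of 14 tested genes in the rest of the oxygen-sensing machinery, 8 had positive and 6 negative log2 changes. Cul2, the scaffold of the Vhl ubiquitin ligase, had 10.8, 22.0 and 8.45 CPM in anti-NK1.1 1, 2 and 3, against 42.5, 23.0 and 28.2 CPM in isotype 1, 2 and 3, a log2 change of -1.19 ± 0.45 (SE; edgeR adjusted p = 0.727). Anti-NK1.1 2 lay just under isotype 2. Elob, the elongin B adaptor of that ligase, had a log2 change of 0.44 ± 0.30, and Ep300, a coactivator of HIF, one of -0.60 ± 0.45.

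Of 30 tested further HIF target genes, 20 had negative and 10 positive log2 changes, with a median of -0.20, where 7126 of all 14520 tested genes had negative ones. The groups did not overlap in 6 (20%, against 15.3% of all tested genes), 5 of them lower (7.59% of all tested genes were). Mxi1, a MYC antagonist, had 37.9, 73.5 and 50.1 CPM in anti-NK1.1 1, 2 and 3, against 89.8, 86.6 and 102 CPM in isotype 1, 2 and 3, a log2 change of -0.78 ± 0.28 (SE; edgeR adjusted p = 0.727). Kdm3a, a histone demethylase, had 1.81, 18.3 and 2.31 CPM in anti-NK1.1 1, 2 and 3, against 32.4, 16.7 and 27.9 CPM in isotype 1, 2 and 3. Anti-NK1.1 2 lay within the isotype range of Kdm3a and the other 2 far below it, with a log2 change of -1.77 ± 0.82. Wsb1, a ubiquitin ligase adaptor, had a log2 change of -0.41 ± 0.21 with groups that did not overlap. Mxi1 and Kdm3a, at 5036 and 4853 nt, have long transcripts, and the part of length in these counts was not tested. DESeq2 called Ddit4 alone in the HIF target group of the list and none of these 30, where it called 0.574% of the genes with an adjusted p.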

How the data were processed

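The authors deposited 1 table, named as normalized, that holds whole-number read counts per gene with different totals per library, so a count test was used. The submitters' processing notes name STAR (2.5.3a), Cufflinks (2.0), DESeq2 (1.1) and mm10, and for base calls and read quality bcl2fastq (2.20.0.422) and FastQC (1.0.0); the counter, its annotation and its strand setting are not stated there. Per the labels' protocols, SMART-seq v4 cDNA and Nextera XT libraries, without molecular identifiers or strand marking, gave 75-base single-end reads. Left out were 2 rows of totals (53.3% to 57.4% of reads in no feature, 0.293% to 0.366% ambiguous) and 26 rows with a date for a symbol.

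Genes passing filterByExpr (14520) were scaled with TMM factors and tested two-sided in edgeR 4.0.16 (R 4.3.3) by the quasi-likelihood F-test, with group as its only term and p-values adjusted over all of them by Benjamini-Hochberg at 0.05. The SE is the absolute log2 change over the square root of F. The common biological coefficient of variation was 0.640. Separate animals are not stated, so p-values measure the spread between these libraries. Alternatives were DESeq2 1.42.0, limma 3.58.1 with quantile normalization, RLE factors, other filters, libraries left out, the replicate block, and a spline correction for length and GC content. Isoenzyme shares were compared by exact permutation. Lengths, coordinates and overlaps are those of GENCODE M21 (GRCm38), with the longest consensus coding transcript per gene. The gene test was tested on simulated data. All 36 members are named, and of each further list at most the 3 genes with the lowest p. The members and lists were chosen with earlier results of these data known.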

Additional observations from a re-analysis of the deposited data

How the results depend on the processing

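Under DESeq2, 83 genes were called (48 higher, 35 lower) against 0 in edgeR, and 2 of the 36 members. Leaving out each library in turn gave 0 to 129 called genes, the 129 (12 higher, 117 lower) without anti-NK1.1 2, and 0 called members throughout. The cause was not tested. The labels do not say whether the replicate numbers pair the libraries. Deviations from the group mean in same-numbered libraries had correlations of 0.053, 0.030 and -0.0038. With 3 libraries per group these values cannot decide whether libraries were paired. With the replicate block 0 genes and 0 members were called and the members' median was -0.13. Of 501 gene values under alternatives, 39 changed sign, and of 24 share values 5 did. With anti-NK1.1 2 alone these were Slc2a1 -0.068, Slc16a3 -0.90, Hk1 0.13, Hk2 0.18, Gapdh -0.14, Eno1 0.054, Ldha -0.23, Pdk1 0.17, Egln3 -2.03, Vhl -0.070, Vegfa -0.55 and P4ha1 0.23. After the correction for length and GC content they were Aldoa -0.17, Gapdh -0.24, Pgk1 -0.061, Ldha -0.083, Ldhb -0.042, Pdha1 0.013 and Egln2 -0.026. The replicate block gave Slc16a3 -0.032 and Pfkfb2 -0.23, and limma gave Slc16a3 -0.072, Pfkfb2 -0.275 and Ldha -0.027. With each library left out, the ranges were -0.024 to 0.39 for Slc2a1, -0.55 to 0.53 for Slc16a3, -0.95 to 0.63 for Pfkfb2, -0.051 to 0.10 for Pgk1, -0.30 to 0.093 for Eno1, -0.18 to 0.18 for Ldha, -0.012 to 0.31 for Ldhb, -0.63 to 0.057 for Pdk1, -0.11 to 0.91 for Egln3 and -0.030 to 0.70 for Vegfa. In percentage points they were -3.90 to 1.86 for the Hk2 share and -6.57 to 0.365 for the Ldha share. Ddit4 stayed between 2.09 and 2.77, Arnt between -1.54 and -1.11 and Hif1a between -1.94 and -0.58 under all alternatives run. After the correction for length and GC content the change moved by over 1.5 times without changing sign to 0.40 for Bnip3, 0.15 for Egln1, -0.53 for Eno1, -0.12 for Pdk1, 0.23 for Pfkm, -0.38 for Pgam1, 0.11 for Slc16a3, 0.16 for Tpi1 and 0.46 for Vegfa. It likewise moved to -0.023 for Slc16a1, -0.029 for Bnip3l, -0.46 for Pkm, -0.075 for P4ha1 and 0.20 for Pfkl. The floor of 3 counts covers counting error only.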
